A study of Mus musculus with 8 samples.

Results

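Ribosome biogenesis and RNA polymerase I factors were described across 3 cell lines on Affymetrix mouse arrays. A set of 40 genes was listed by function, and a gene was taken up when the RefSeq transcript of a probe set carried its current or a former symbol. Of the 40 genes, 36 were found among the 15653 genes that could be named on the array, which holds 22523 probe sets besides 64 control probe sets. Npm1, Fbl, Wdr43 and Mrto4 were not analysed here. Probe sets with the same values were counted once, which left 1 profile for each of the 36 genes. That of Npm3 carries the same values as the probe set of Npm3-ps1, a pseudogene, so its level is uncertain.

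The study compared cultures that renew themselves asymmetrically with cultures that do so symmetrically. All 3 lines descend from p53-null mouse fetal fibroblasts and were grown with 65 µM ZnCl2 for 48 h and puromycin at 5 µg/ml. Ind-8 cells (ASYM, 3 arrays) carry a p53 cDNA behind a modified human metallothionein promoter, which zinc turns on. Con-3 cells (SYM, 3 arrays) lack p53; they are a vector control by the paper, while by the labels Ind-8 was made from them. The third line, tI-3 (p53SYM, 2 arrays), was derived from Ind-8, makes p53 in zinc and also carries a constitutive IMPDH II transgene, and its medium held G418 as well, at a concentration on which the labels and the paper differ. Each state is 1 cloned line, so that a difference between states cannot be told apart from a difference between clones. Each array received RNA from its own culture, described as a biological replicate, and the values are deposited log2 levels.

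Ribosomes are built in the nucleolus, where RNA polymerase I copies the ribosomal RNA genes into a long precursor. Small nucleolar ribonucleoproteins modify that precursor, and large sets of assembly factors fold it, cut it and load it with ribosomal proteins to give the small and the large subunit. In growing fibroblasts this work takes a great share of the cell's synthetic capacity, MYC is known as an activator of many of its genes, p53 is known to repress RNA polymerase I, and a shortage of GTP, which IMPDH supplies, is known to slow ribosomal RNA synthesis.

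One array stood apart before any gene was considered. The 18S ribosomal RNA control probe sets had a mean log2 level of 10.63 on SYM replicate 3 and of 5.58 to 6.46 on the other 7 arrays. The bacterial hybridization controls averaged 9.62 on SYM replicate 3, 9.43 on p53SYM replicate 1 and 9.71 on p53SYM replicate 2, against 8.98 to 9.16 on the other 5 arrays. The values of all probe sets were also less widely spread on the p53SYM arrays, with interquartile ranges of 3.78 and 3.69 log2 units, against 4.14, 4.11 and 4.04 for ASYM and 4.07, 4.03 and 3.88 for SYM. Their part in the results was not tested beyond the fits given below without SYM replicate 3, with the hybridization controls as a block, and after a second quantile normalization.

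**Figure D1:**
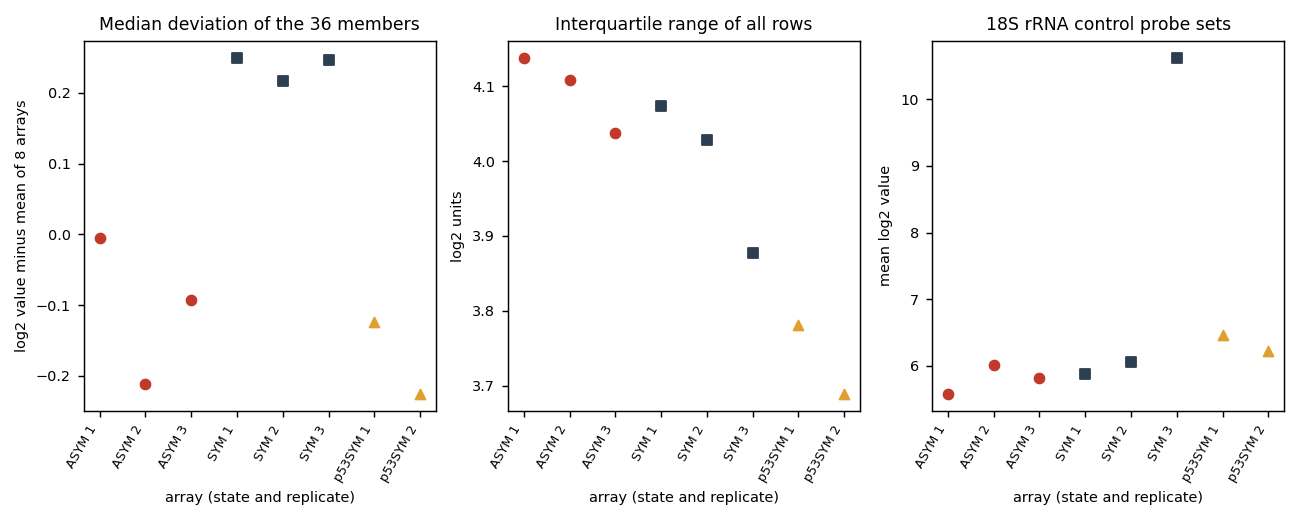
Values of each array, with ASYM as circles, SYM as squares and p53SYM as triangles: left, the median over the 36 genes of the log2 value minus the gene's mean over the 8 arrays; middle, the interquartile range of all probe sets in log2 units; right, the mean log2 level of the 18S ribosomal RNA control probe sets. The 3 SYM arrays lie highest on the left, the p53SYM arrays have the smallest range, and SYM replicate 3 stands apart on the right.

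The labels were checked on Cdkn1a, Mdm2 and Impdh2. Trp53 and Impdh1 were listed for the same check, and their levels are not given here. Cdkn1a, the cell cycle inhibitor that p53 induces, read 9.70, 9.70 and 9.59 in ASYM, 5.73, 5.81 and 6.03 in SYM and 7.55 and 7.33 in p53SYM. The states did not overlap, and p53SYM lay between the others. The level of Mdm2, a p53 target whose product degrades p53, was 10.79, 11.19 and 10.71 in ASYM, 9.02, 8.79 and 8.87 in SYM and 9.67 and 9.56 in p53SYM, in the same order. Impdh2, the gene of IMPDH II, read 12.16, 12.19 and 12.22 in ASYM, 12.51, 12.56 and 12.53 in SYM and 12.34 and 12.38 in p53SYM. It was called lower in ASYM than in SYM, with a change of −0.34 ± 0.08 (SE; adjusted p = 0.0108), and the change from p53SYM to ASYM was −0.17 ± 0.09 (SE; adjusted p = 0.163). For Impdh2 both p53SYM arrays lay below all SYM arrays. The paper states that IMPDH II expression is elevated in p53SYM relative to SYM. Whether the Impdh2 probes see the transgene's cDNA was not tested. Of 9 fibroblast markers the highest signals were those of Vim in ASYM and SYM and S100a4 in p53SYM, although signals of different probe sets cannot be compared as amounts, with means over the list of 10.41, 10.70 and 10.68 in ASYM, 10.23, 10.43 and 10.45 in SYM and 9.97 and 9.91 in p53SYM. Relative to p53SYM, 5 of the 9 were called higher and 1 lower in ASYM. Relative to SYM, 2 were called higher and 1 lower in ASYM, and 3 higher and 3 lower in p53SYM, where Col3a1, a fibrillar collagen, read 6.26 and 6.51 next to 8.59, 9.37 and 9.25 in SYM and 7.91, 9.32 and 9.18 in ASYM. Next to these counts, 15.6% and 15.5% of all probe sets were called higher and lower for ASYM against p53SYM, 10.9% and 11.0% for ASYM against SYM, and 10.2% and 15.1% for p53SYM against SYM. The 3 higher in p53SYM became 0 without SYM replicate 1 or either p53SYM array, and the 1 lower in ASYM than in SYM became 0 with any 1 array left out. The part of these markers in the results was not tested. Thy1 lay between 3.81 and 4.63, near the 25th percentile of all probe sets at 4.30, so this defining marker was at the dim end.

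Most of the 36 genes were highest in the p53-null line. SYM had the highest mean for 33 of them, a count for which no share of all probe sets was taken. The change from SYM was negative for 34 of the 36 genes in ASYM and for 34 in p53SYM. Over the 22523 probe sets it was negative for 13793 in ASYM and 10173 in p53SYM. For 18 genes all 5 arrays of the lines with p53 lay below all 3 SYM arrays, against 10.8% of all probe sets. The opposite held for 1 gene, Rrn3, against 7.86%. On the SYM arrays 32, 33 and 34 of the 36 genes were above their own mean over the 8 arrays, compared with 17, 2 and 5 in ASYM and 11 and 5 in p53SYM. No share of all probe sets was taken for these array counts. In RNA from whole cultures, fewer cells with a high level and less RNA in each cell cannot be told apart.

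limma called 20 of the 36 genes lower in ASYM than in SYM (55.6%), against 11.0% of all probe sets, and 0 higher, against 10.9%. At an unadjusted p under 0.05 there was 1 higher. Between p53SYM and SYM, 21 were called lower (58.3%), against 15.1% of all probe sets, and 0 higher, against 10.2%, with 0 higher at an unadjusted p under 0.05 as well. The median log2 change of the 36 genes was −0.31 for ASYM against SYM, where that of all probe sets was −0.06, and −0.42 for p53SYM against SYM, where that of all probe sets was 0.04. ASYM against p53SYM gave 5 called higher (13.9%) and 3 called lower (8.3%), against 15.6% and 15.5% of all probe sets, and a median of 0.10 against −0.06. These shares are close to or under those of the array as a whole, so the counts of the last comparison are not a result about these genes. The comparisons with SYM share its 3 arrays, and both comparisons of ASYM share the ASYM arrays.

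Calls also varied with brightness, and all 36 genes had means above the median of all probe sets. Among the 10444 probe sets whose means lay within the range of the 36 genes, 17.8% were called higher and 18.6% lower in ASYM than in SYM, and 11.8% were higher and 27.1% lower in p53SYM than in SYM. For ASYM against p53SYM these shares were 26.6% and 12.6%. Without SYM replicate 3, limma called 15 of the 36 lower and 0 higher in ASYM than in SYM, against 8.18% and 8.02% of all probe sets, and 17 lower and 0 higher in p53SYM than in SYM, against 13.5% and 10.2%. Without p53SYM replicate 2 the count lower in p53SYM than in SYM was 11, against 8.48% of all probe sets and 14.9% of those in the brightness range. With the hybridization controls (high or low) as a block it was 12, against 8.56%, and that for ASYM against SYM was 15, against 8.18%. After a second quantile normalization 15 were lower in p53SYM than in SYM, against 12.4%, with 6 positive changes, next to 2 in the main fit. As SYM replicate 3 is the only SYM array with high controls, in the fit with that block p53SYM is compared with this array alone, and ASYM with SYM is the comparison without it.

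Counting only whether the arrays of the compared states overlapped gave a like picture in both comparisons with SYM. ASYM lay wholly below SYM for 23 genes, against 21.8% of all probe sets, and wholly above it for 1, against 16.2%. p53SYM lay wholly below SYM for 28 genes, against 25.9%, and wholly above for 2, Rrn3 and Noc4l, against 25.7%. ASYM lay wholly above p53SYM for 13, against 25.8%, and wholly below for 8, against 34.5%. The 13 were over the share of all probe sets, unlike the 5 that limma called higher. Shares of overlap were not taken within the brightness range, so the 13 are not read as a result about these genes.

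**Figure D2:**
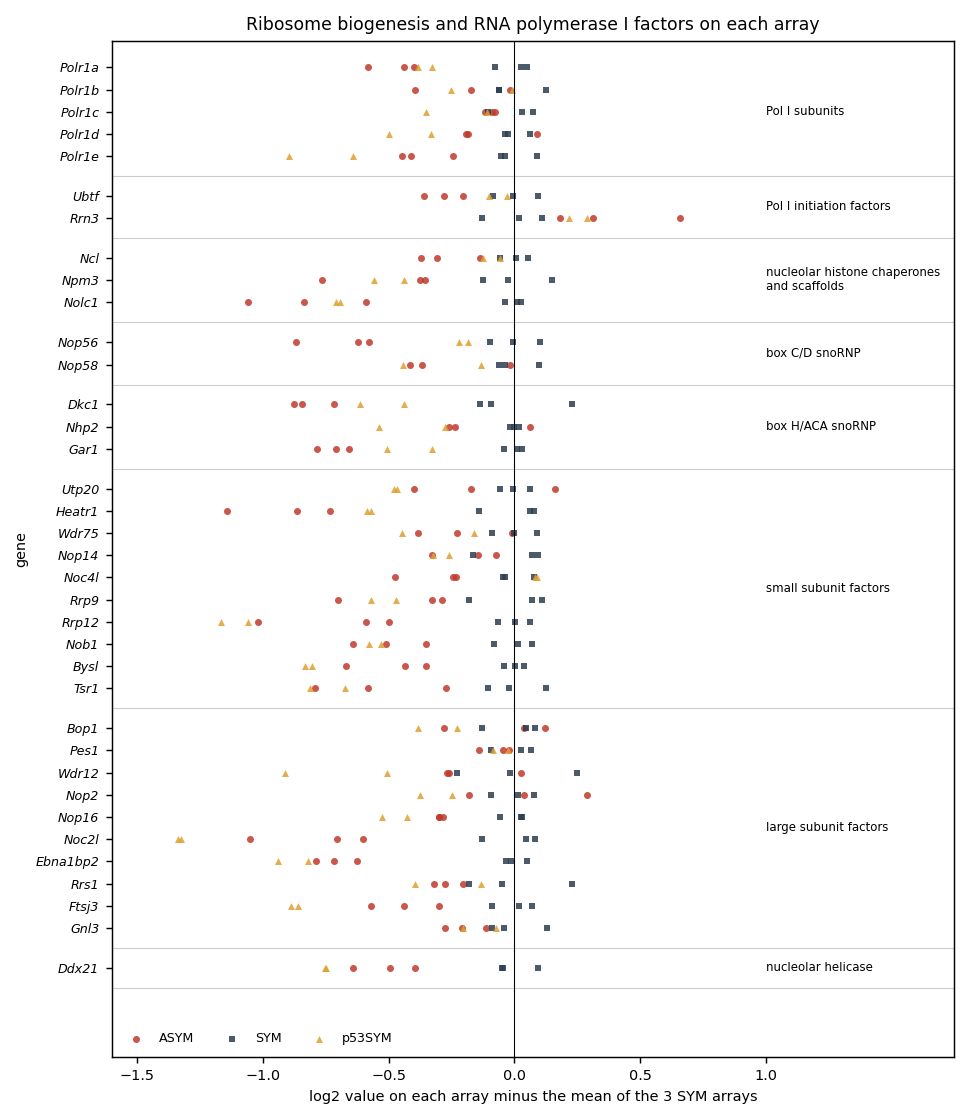
Log2 value of each of the 36 genes on each array minus the mean of the gene's 3 SYM arrays, grouped by role, with ASYM as circles, SYM as squares and p53SYM as triangles. Most points of ASYM and p53SYM lie left of 0, Rrn3 is the gene whose 5 ASYM and p53SYM points all lie right of the SYM points, and Noc2l and Rrp12 reach furthest left in p53SYM.

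The promoters of 4 genes are shown as examples. Noc2l, Heatr1 and Nolc1 were called lower in both lines with p53 than in SYM. Rrn3 had the opposite order and was called in no comparison of the main fit. They are RefSeq windows of 300 bases around the annotated start on build GRCm38.p6, each on the plus strand and read 5′ to 3′. Capitals mark the E-box CACGTG that MYC and related factors can bind, its variant CACGCG, and CCGGAAG, a core that ETS factors can bind, on either strand. The windows lie at chr4:156235765-156236064 for Noc2l, chr13:12395125-12395424 for Heatr1, chr19:46075597-46075896 for Nolc1 and chr16:13780449-13780748 for Rrn3.
Noc2l: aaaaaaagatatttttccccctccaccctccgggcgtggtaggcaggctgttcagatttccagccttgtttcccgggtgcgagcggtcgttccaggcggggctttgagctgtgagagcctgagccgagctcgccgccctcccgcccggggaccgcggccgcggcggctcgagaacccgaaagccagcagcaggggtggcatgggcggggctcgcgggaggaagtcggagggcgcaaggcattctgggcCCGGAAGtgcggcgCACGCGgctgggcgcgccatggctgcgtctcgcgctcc
Heatr1: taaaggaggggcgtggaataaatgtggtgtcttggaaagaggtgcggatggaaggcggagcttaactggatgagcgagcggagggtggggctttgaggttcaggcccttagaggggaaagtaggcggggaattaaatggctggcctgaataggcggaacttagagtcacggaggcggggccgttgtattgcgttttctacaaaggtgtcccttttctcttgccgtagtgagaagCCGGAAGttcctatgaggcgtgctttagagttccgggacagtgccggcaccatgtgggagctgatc
Nolc1: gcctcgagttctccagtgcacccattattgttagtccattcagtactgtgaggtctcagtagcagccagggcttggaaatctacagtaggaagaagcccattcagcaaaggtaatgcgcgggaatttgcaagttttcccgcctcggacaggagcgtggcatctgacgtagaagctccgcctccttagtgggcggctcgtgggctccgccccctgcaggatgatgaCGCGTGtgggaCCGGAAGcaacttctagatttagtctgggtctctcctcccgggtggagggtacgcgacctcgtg
Rrn3: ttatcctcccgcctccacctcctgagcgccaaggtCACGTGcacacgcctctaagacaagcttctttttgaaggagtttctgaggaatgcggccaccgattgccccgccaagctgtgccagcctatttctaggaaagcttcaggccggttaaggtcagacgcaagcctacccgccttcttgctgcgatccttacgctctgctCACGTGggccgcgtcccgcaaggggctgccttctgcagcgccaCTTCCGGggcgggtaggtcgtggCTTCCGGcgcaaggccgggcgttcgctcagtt

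Noc2l and Nolc1 each hold 1 CACGCG and 1 CCGGAAG, Heatr1 holds 1 CCGGAAG, and Rrn3 holds 2 of CACGTG and 2 of CCGGAAG. Of the 40 listed genes, 35 had a promoter in the table, some with several starts, any of which could hold a match. CACGTG was found for 6 of the 35 (17.1%), among them Rrn3, Tsr1 and Utp20, compared with 8.1% of all 27025 genes in the table. CACGCG was found for 10 (28.6%), among them Noc2l, Nolc1, Bysl and Polr1e, compared with 10.5%. CCGGAAG was found for 11 (31.4%), compared with 9.9%, and the GC box GGGCGG for 26 (74.3%), compared with 38.2%. CCAAT was found for 8 (22.9%) and TATAAA for 2 (5.7%), compared with 41.1% and 15.7%. The promoters held a median of 59.3% G and C, compared with 52.8% over all genes, and CACGCG and GGGCGG are made of G and C but for 1 or 0 letters. Among the 16 genes with a promoter that were called lower in both lines with p53, 1 held CACGTG, 6 held CACGCG and 7 held CCGGAAG. The 6 motifs described were picked from 19 after their counts were seen; a match is a description of the sequence and no evidence of binding.

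RNA polymerase I itself is represented by 5 subunits among the 36 genes, and further subunits are given below with its other machinery. Polr1a, the largest catalytic subunit, read 8.25, 8.11 and 8.29 in ASYM, 8.74, 8.61 and 8.72 in SYM and 8.36 and 8.31 in p53SYM. All ASYM and p53SYM values lay below the SYM values. The change was −0.47 ± 0.09 (SE; adjusted p = 0.00408) for ASYM against SYM, −0.36 ± 0.10 (SE; adjusted p = 0.024) for p53SYM against SYM and −0.12 ± 0.10 (SE; adjusted p = 0.379) for ASYM against p53SYM. The call for p53SYM against SYM was lost under 6 of 18 alternatives, with adjusted p between 0.0525 and 0.134. Polr1b, the other large subunit of the catalytic centre, read 8.27, 7.89 and 8.11 in ASYM, 8.41, 8.22 and 8.22 in SYM and 8.27 and 8.03 in p53SYM. The states overlapped and no comparison was called, with changes of −0.19 ± 0.12 (SE; adjusted p = 0.286) for ASYM against SYM, −0.06 ± 0.13 (SE; adjusted p = 0.733) for ASYM against p53SYM and −0.13 ± 0.13 (SE; adjusted p = 0.516) for p53SYM against SYM.

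Polr1e, a subunit particular to this polymerase that helps it to start and to elongate, separated all 3 states. Its levels were 8.22, 8.06 and 8.02 in ASYM, 8.55, 8.41 and 8.43 in SYM and 7.82 and 7.57 in p53SYM. ASYM lay between SYM and p53SYM without overlap. Relative to SYM, p53SYM changed by −0.77 ± 0.11 (SE; adjusted p = 0.000915), and ASYM was above p53SYM by 0.40 ± 0.11 (SE; adjusted p = 0.0232). Polr1c and Polr1d are shared with RNA polymerase III. Polr1d read 11.82, 11.54 and 11.53 in ASYM, 11.79, 11.69 and 11.70 in SYM and 11.39 and 11.23 in p53SYM, and was called lower in p53SYM than in SYM only. Polr1c read 10.71, 10.73 and 10.74, 10.72, 10.85 and 10.90 and 10.72 and 10.47 in the same order of states and was called in no comparison.

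Rrn3 and Ubtf are the initiation factors of the polymerase among the genes listed. Rrn3, which brings the polymerase to the promoter of the ribosomal RNA genes, read 9.31, 8.83 and 8.96 in ASYM, 8.76, 8.52 and 8.67 in SYM and 8.87 and 8.94 in p53SYM. All 5 arrays of the lines with p53 were above the SYM arrays. The change from SYM to ASYM was 0.38 ± 0.13 (SE; adjusted p = 0.0532) and missed the threshold, which it passed under 4 of 18 alternatives, and that from SYM to p53SYM was 0.25 ± 0.14 (SE; adjusted p = 0.221); ASYM against p53SYM gave 0.13 ± 0.14 (SE; adjusted p = 0.498). Ubtf, the architectural factor that binds along the ribosomal RNA genes, read 8.75, 8.67 and 8.83 in ASYM, 8.94, 9.02 and 9.12 in SYM and 9.0 and 8.93 in p53SYM. ASYM was the lowest state, p53SYM and SYM overlapped. The change for ASYM against SYM was −0.28 ± 0.09 (SE; adjusted p = 0.0462); this call was lost under 9 of 18 alternatives, with adjusted p between 0.0584 and 0.148. For Ubtf the other changes were −0.22 ± 0.10 (SE; adjusted p = 0.12) for ASYM against p53SYM and −0.06 ± 0.10 (SE; adjusted p = 0.681) for p53SYM against SYM.

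Among the nucleolar chaperones and scaffolds, Nolc1, which binds and ferries small nucleolar ribonucleoproteins, changed most. Its levels were 9.64, 9.17 and 9.39 in ASYM, 10.26, 10.20 and 10.24 in SYM and 9.54 and 9.52 in p53SYM. The SYM arrays stood above all others, and the ASYM and p53SYM arrays overlapped. The change was −0.83 ± 0.11 (SE; adjusted p = 0.000815) for ASYM against SYM. Npm3, a histone chaperone of the nucleophosmin family, read 9.62, 10.03 and 10.01 in ASYM, 10.26, 10.53 and 10.36 in SYM and 9.94 and 9.82 in p53SYM, and was called lower in both comparisons with SYM. Ncl encodes nucleolin, an abundant RNA-binding protein of the nucleolus. It read 11.86, 11.70 and 11.63 in ASYM, 12.05, 11.94 and 12.01 in SYM and 11.95 and 11.88 in p53SYM. ASYM was the lowest state without overlap, yet no comparison was called: −0.27 ± 0.09 (SE; adjusted p = 0.0595) for ASYM against SYM, −0.18 ± 0.10 (SE; adjusted p = 0.197) for ASYM against p53SYM and −0.09 ± 0.10 (SE; adjusted p = 0.569) for p53SYM against SYM. The first passed the threshold under 4 of 18 alternatives and the second under 1.

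Among the core proteins of the small nucleolar ribonucleoproteins, Nop56, a core protein of the box C/D class that guides methylation of ribosomal RNA, read 10.62, 10.37 and 10.66 in ASYM, 11.23, 11.14 and 11.34 in SYM and 11.02 and 11.05 in p53SYM. ASYM lay below both other states, and p53SYM lay just below SYM. Relative to p53SYM, ASYM changed by −0.49 ± 0.11 (SE; adjusted p = 0.0102), the largest called fall of that comparison among the 36 genes. Its partner Nop58 read 11.11, 10.77 and 10.72 in ASYM, 11.07, 11.23 and 11.10 in SYM and 11.00 and 10.69 in p53SYM and was called in no comparison.

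The box H/ACA class converts uridines of ribosomal RNA to pseudouridines. Dkc1, its catalytic enzyme, read 9.57, 9.41 and 9.44 in ASYM, 10.51, 10.15 and 10.19 in SYM and 9.85 and 9.67 in p53SYM, with ASYM the lowest and SYM the highest state and no overlap. Gar1, a core protein of the same particle, had the same order, with 10.09, 10.02 and 10.14 in ASYM, 10.83, 10.81 and 10.76 in SYM and 10.47 and 10.29 in p53SYM. For ASYM against SYM the changes were −0.81 ± 0.11 (SE; adjusted p = 0.000856) for Dkc1 and −0.72 ± 0.09 (SE; adjusted p = 0.000399) for Gar1, and for ASYM against p53SYM Gar1 changed by −0.30 ± 0.10 (SE; adjusted p = 0.0397). Nhp2, the third core protein measured, had another order, with 12.15, 11.83 and 11.85 in ASYM, 12.11, 12.08 and 12.07 in SYM and 11.81 and 11.55 in p53SYM. ASYM and SYM overlapped for Nhp2. All 3 of these genes were called lower in p53SYM than in SYM.

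Of 10 small subunit factors, 7 were called lower in ASYM than in SYM and 7 in p53SYM than in SYM, with 0 higher in either, next to 11.0% and 15.1% of all probe sets called lower, and 18.6% and 27.1% of those in the brightness range of the 36 genes. Heatr1, which links transcription of the precursor to its first processing, read 6.79, 7.07 and 7.20 in ASYM, 8.01, 7.79 and 7.99 in SYM and 7.36 and 7.34 in p53SYM. SYM stood apart from both other states, and ASYM lay below p53SYM. Its change of −0.91 ± 0.12 (SE; adjusted p = 0.00052) was the largest fall of the 36 genes between SYM and ASYM. Rrp12, which helps to export the subunit precursors, read 8.67, 8.15 and 8.58 in ASYM, 9.10, 9.23 and 9.17 in SYM and 8.11 and 8.0 in p53SYM. Here p53SYM was the lowest state, without overlap, and changed by −1.11 ± 0.14 (SE; adjusted p = 0.000479) relative to SYM. Bysl, an assembly factor of the late small subunit precursor, had the same order, with 9.30, 8.99 and 9.22 in ASYM, 9.70, 9.61 and 9.66 in SYM and 8.82 and 8.85 in p53SYM. Relative to SYM, p53SYM changed by −0.82 ± 0.11 (SE; adjusted p = 0.000564).

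Nob1, Tsr1 and Rrp9 moved alike in both lines with p53. Nob1, the nuclease that makes the final cut of the small subunit RNA, read 9.87, 9.58 and 9.71 in ASYM, 10.23, 10.14 and 10.29 in SYM and 9.64 and 9.69 in p53SYM. Tsr1, a late assembly factor related to GTPases, read 10.26, 9.75 and 9.95, 10.66, 10.43 and 10.52 and 9.86 and 9.72 in the same order of states. Both were called lower in ASYM and in p53SYM than in SYM, and ASYM and p53SYM overlapped. Rrp9, a protein of the U3 particle, was also called lower in both, with 9.29, 8.91 and 9.32 in ASYM, 9.43, 9.68 and 9.72 in SYM and 9.04 and 9.14 in p53SYM.

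The remaining small subunit factors were less uniform. Noc4l, a partner of Nop14, read 8.95, 8.72 and 8.96 in ASYM, 9.15, 9.16 and 9.27 in SYM and 9.29 and 9.28 in p53SYM. It was low in ASYM alone, and ASYM changed by −0.40 ± 0.11 (SE; adjusted p = 0.0172) relative to p53SYM. Nop14 read 9.73, 9.47 and 9.65, 9.63, 9.89 and 9.87 and 9.54 and 9.47, and Wdr75, which acts early with Heatr1, read 9.94, 9.72 and 9.57, 10.04, 9.86 and 9.95 and 9.79 and 9.50, each in ASYM, SYM and p53SYM in turn. Neither was called in any comparison. Utp20 read 10.68, 10.12 and 10.34 in ASYM, 10.46, 10.51 and 10.58 in SYM and 10.05 and 10.04 in p53SYM and was called lower in p53SYM than in SYM only.

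Of 10 large subunit factors, 4 were called lower in ASYM than in SYM and 5 in p53SYM than in SYM, next to the same shares of 11.0% and 15.1%, and of 18.6% and 27.1% in that brightness range. Noc2l, which accompanies the large subunit precursor and is also known to bind p53, read 9.04, 8.59 and 8.94 in ASYM, 9.52, 9.73 and 9.69 in SYM and 8.32 and 8.31 in p53SYM. The states did not overlap, and p53SYM was the lowest. The change was −0.79 ± 0.12 (SE; adjusted p = 0.00143) for ASYM against SYM and −1.33 ± 0.14 (SE; adjusted p = 0.000126) for p53SYM against SYM, the largest of the 36 genes, and ASYM was above p53SYM by 0.54 ± 0.14 (SE; adjusted p = 0.0137). Ebna1bp2, an early assembly factor, read 10.51, 10.34 and 10.41 in ASYM, 11.18, 11.10 and 11.12 in SYM and 10.31 and 10.19 in p53SYM. ASYM and p53SYM both lay far below SYM and close to each other, with −0.71 ± 0.09 (SE; adjusted p = 0.000399) for ASYM against SYM and −0.88 ± 0.10 (SE; adjusted p = 0.000185) for p53SYM against SYM. Ftsj3, a methyltransferase of the nucleolus, read 9.72, 9.45 and 9.58 in ASYM, 10.09, 10.04 and 9.93 in SYM and 9.16 and 9.13 in p53SYM. It had the order of Noc2l, with −0.88 ± 0.11 (SE; adjusted p = 0.000335) for p53SYM against SYM and 0.44 ± 0.11 (SE; adjusted p = 0.0124) for ASYM against p53SYM.

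Bop1, Pes1 and Wdr12 form 1 complex of large subunit assembly. Pes1 read 8.21, 8.24 and 8.12 in ASYM, 8.33, 8.17 and 8.29 in SYM and 8.24 and 8.17 in p53SYM, with all states overlapping. Bop1 read 10.36, 9.96 and 10.28 in ASYM, 10.11, 10.28 and 10.32 in SYM and 9.86 and 10.01 in p53SYM, with p53SYM wholly below SYM. Neither was called in any comparison. Wdr12 read 6.70, 6.41 and 6.42 in ASYM, 6.92, 6.66 and 6.44 in SYM and 6.17 and 5.76 in p53SYM. It was low in p53SYM, ASYM and SYM overlapped, and the change of ASYM against p53SYM was 0.54 ± 0.17 (SE; adjusted p = 0.0323).

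Of the other large subunit factors, Nop16 read 6.96, 6.94 and 6.94 in ASYM, 7.27, 7.18 and 7.27 in SYM and 6.81 and 6.71 in p53SYM and was called lower in both comparisons with SYM. Nop2, a methyltransferase of the large subunit RNA, read 10.80, 10.33 and 10.55 in ASYM, 10.53, 10.42 and 10.59 in SYM and 10.14 and 10.27 in p53SYM, and Rrs1 read 10.78, 10.67 and 10.71, 11.22, 10.94 and 10.81 and 10.86 and 10.59. Neither passed the test. Gnl3 encodes nucleostemin, a GTP-binding protein of the nucleolus known from stem cells. It read 11.19, 11.09 and 11.02 in ASYM, 11.43, 11.21 and 11.25 in SYM and 11.23 and 11.09 in p53SYM. ASYM lay just below SYM, p53SYM overlapped both, and the changes of −0.20 ± 0.10 (SE; adjusted p = 0.177) for ASYM against SYM, −0.06 ± 0.11 (SE; adjusted p = 0.685) for ASYM against p53SYM and −0.14 ± 0.11 (SE; adjusted p = 0.388) for p53SYM against SYM were not called.

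Ddx21, an RNA helicase that acts in transcription and processing of ribosomal RNA, read 10.55, 10.30 and 10.45 in ASYM, 11.04, 10.90 and 10.89 in SYM and 10.19 and 10.19 in p53SYM. It was called lower in both lines with p53, which did not overlap with SYM or with each other. In all, 17 of the 36 genes were called lower in both comparisons with SYM, against 5.39% of all probe sets and 9.55% of those in the brightness range of the 36 genes, 3 in ASYM alone, 4 in p53SYM alone, and 12 were called in none of the 3 comparisons. The order of the state means was SYM, ASYM, p53SYM from high to low for 21 genes and SYM, p53SYM, ASYM for 12. These orders were not counted over all probe sets.

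**Figure D3:**
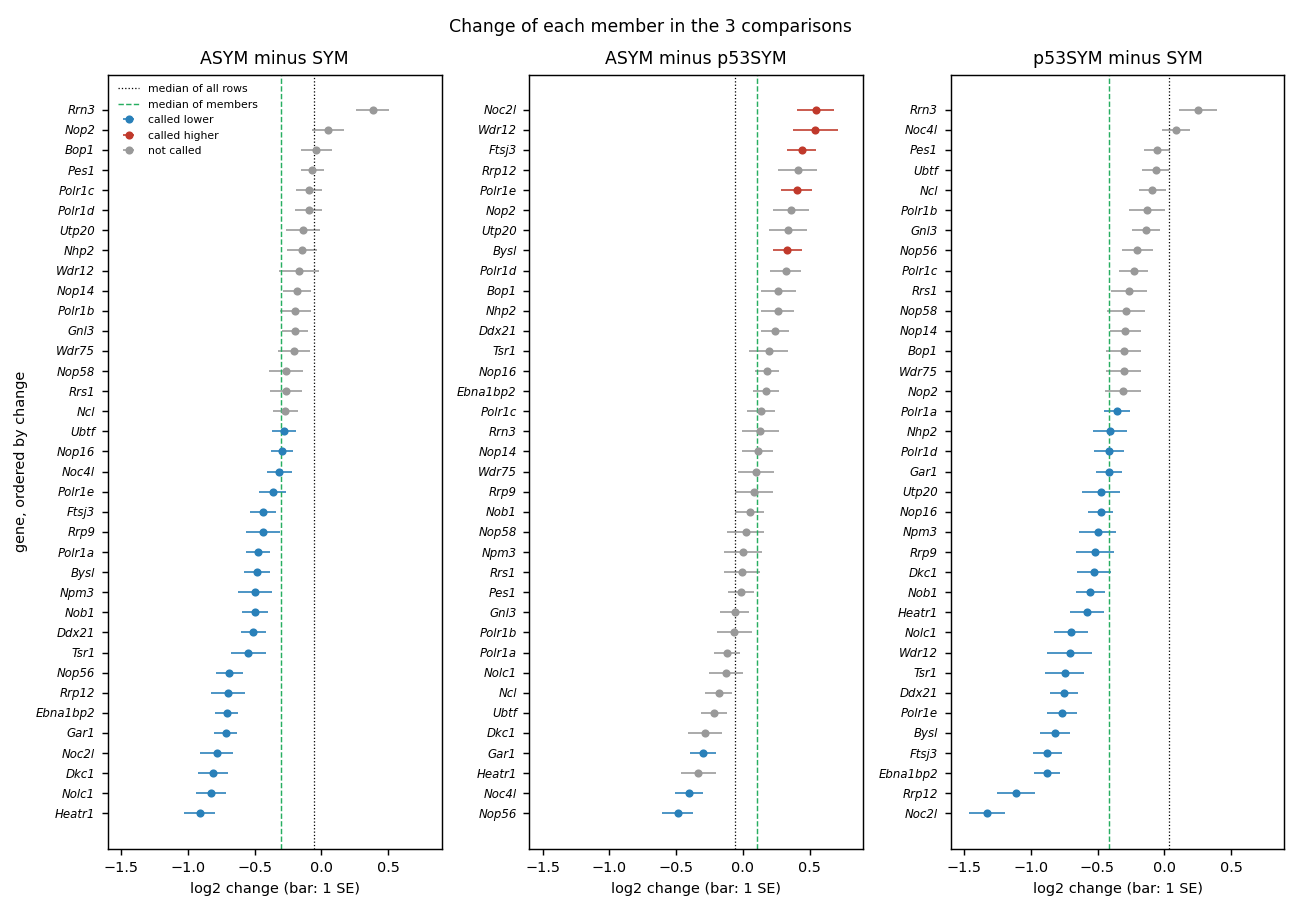
Log2 change of each of the 36 genes in the 3 comparisons, ordered by size, with bars of 1 SE from limma; blue, red and grey points were called lower, called higher and not called, the dashed line is the median of the 36 genes and the dotted line that of all probe sets. The points lie mostly left of 0 in both comparisons with SYM, and on both sides of 0 for ASYM against p53SYM.

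ASYM and p53SYM both make p53 and differ in the IMPDH II transgene. They also differ in clone, in G418 and in the levels of Cdkn1a and Mdm2, which were lower in p53SYM, and Impdh2 was not called between them, so the transgene cannot be told apart from these. The 5 genes called higher in ASYM were Noc2l, Wdr12, Ftsj3, Polr1e and Bysl; Bysl changed by 0.33 ± 0.11 (SE; adjusted p = 0.0424). The 3 called lower were Nop56, Noc4l and Gar1. The split depended on the scaling and on single arrays. After a second quantile normalization 2 were called higher and 7 lower, and the median change went from 0.10 to −0.01. Without p53SYM replicate 2 limma called 0 of the 36 genes, without p53SYM replicate 1 it called 3 higher and 1 lower, and without ASYM replicate 1 it called 2 higher and 2 lower. Without ASYM replicate 2 it called 8 higher and 1 lower, and with a trend in the prior variance 8 higher and 3 lower. Each of the 8 calls was lost under 2 to 10 of 18 alternatives. Blocking on the hybridization controls (high or low) gave 0 calls. With that block the median change was 0.16, next to 0.10; no array of ASYM and p53SYM shares a level of these controls, so the block compares them only through SYM. The medians against SYM were −0.32 for ASYM and −0.39 for p53SYM with the block, next to −0.31 and −0.42, and −0.38 for p53SYM without its replicate 2.

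The rank product test, which the study used, called fewer genes. It called 4 of the 36 lower in ASYM than in SYM, Heatr1, Nolc1, Dkc1 and Noc2l, against 1.43% of all probe sets, and 0 higher, against 2.22%. For p53SYM against SYM it called 2 lower, Noc2l and Rrp12, against 1.67%, and 0 higher, against 0.635%. For ASYM against p53SYM it called 0 in either direction, against 1.59% higher and 0.44% lower, where limma had called 8. At a stricter pfp under 0.01 it called 0 of the 36 in each comparison, and without any 1 of the 3 SYM arrays it called 0 in both comparisons with SYM. Without ASYM replicate 2 or 3 it called 1 lower in ASYM, and without p53SYM replicate 1 or 2 it called 0 and 1 lower in p53SYM.

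Further genes of ribosome synthesis that were not among the 40 were counted in the same way. Of 39 other small subunit factors, 12 were called lower and 1 higher in ASYM than in SYM, and 20 lower and 0 higher in p53SYM than in SYM. Of 40 other large subunit factors, 17 were called lower and 0 higher in ASYM, and 21 lower and 1 higher in p53SYM, each against SYM. Of 16 further genes of small nucleolar ribonucleoproteins and the RNA exosome, 8 and 7 were called lower and 0 higher. Their median changes were −0.21, −0.28 and −0.36 for ASYM against SYM and −0.36, −0.45 and −0.32 for p53SYM against SYM, in that order of lists. For ASYM against p53SYM the 3 lists had 10 higher and 2 lower, 7 higher and 3 lower, and 2 higher and 1 lower. The shares called lower in ASYM than in SYM were 30.8%, 42.5% and 50.0%, against 11.0% of all probe sets and 18.6% of those in the brightness range of the 36 genes, and in p53SYM than in SYM 51.3%, 52.5% and 43.8%, against 15.1% and 27.1%. Without p53SYM replicate 2 the counts lower in p53SYM than in SYM were 12, 16 and 6, next to 20, 21 and 7, with 30.8% the lowest share, against 8.48% of all probe sets and 14.9% of that brightness range in the same fit. For ASYM against p53SYM 25.6%, 17.5% and 12.5% were higher, under the 26.6% of that brightness range (15.6% of all probe sets), so these counts are not a result about the lists.

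Dis3, the nuclease of the RNA exosome, showed the largest falls of these lists. It read 9.76, 9.65 and 9.62 in ASYM, 10.89, 10.62 and 10.85 in SYM and 9.49 and 9.32 in p53SYM, so both lines with p53 lay below SYM. Its change was −1.11 ± 0.10 (SE; adjusted p = 8.31e-05) for ASYM against SYM and −1.38 ± 0.11 (SE; adjusted p = 3.69e-05) for p53SYM against SYM. Rpf1 and Rpf2, both assembly factors of the large subunit, went opposite ways in p53SYM by the probe sets used. Rpf1 has 2 probe sets with different values, and only the brighter is given here. Rpf2 read 8.74, 8.37 and 8.31 in ASYM, 8.96, 8.64 and 8.39 in SYM and 7.74 and 7.20 in p53SYM, and p53SYM was the lowest state. Rpf1 read 8.77, 8.84 and 8.69 in ASYM, 9.41, 9.31 and 9.44 in SYM and 9.96 and 9.86 in p53SYM, and p53SYM was the highest. Relative to p53SYM, ASYM changed by −1.15 ± 0.10 (SE; adjusted p = 5.41e-05) for Rpf1 and by 1.00 ± 0.20 (SE; adjusted p = 0.00559) for Rpf2.

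The other machinery of RNA polymerase I was counted too. Of 12 further genes, 1 was called higher and 1 lower in ASYM than in SYM, 1 higher and 3 lower in p53SYM than in SYM, and 0 in either direction between ASYM and p53SYM. In the brightness range of the 36 genes 18.6% and 27.1% of probe sets were called lower in the comparisons with SYM. The counts rest on single arrays: 3 were lower in ASYM than in SYM without ASYM replicate 1, and 1 in p53SYM than in SYM without p53SYM replicate 2. Polr2e, a subunit that all 3 nuclear polymerases share, read 10.95, 10.95 and 11.10 in ASYM, 11.35, 11.46 and 11.55 in SYM and 10.85 and 10.84 in p53SYM. It changed by −0.45 ± 0.09 (SE; adjusted p = 0.00589) for ASYM against SYM and −0.61 ± 0.10 (SE; adjusted p = 0.00193) for p53SYM against SYM. Taf1b, a subunit of the promoter selectivity factor, read 7.11, 7.16 and 7.13 in ASYM, 6.61, 6.63 and 6.60 in SYM and 7.27 and 6.87 in p53SYM. It was called higher in both lines with p53 than in SYM, but for p53SYM the call was lost without p53SYM replicate 1 and with the hybridization-control block. Taf1a of the same factor read 7.15, 6.75 and 6.66, 7.28, 7.05 and 7.29 and 6.60 and 6.25 in the same order of states. Taf1a changed by −0.78 ± 0.16 (SE; adjusted p = 0.00597) in p53SYM against SYM. Of 22 genes of RNA polymerase III, 6 were called lower and 2 higher in ASYM and 6 lower and 0 higher in p53SYM, each against SYM. The 27.3% called lower lie next to 18.6% of the probe sets in the brightness range of the 36 genes for ASYM and 27.1% for p53SYM, and without ASYM replicate 2, SYM replicate 2 or SYM replicate 3 the count for ASYM was 2, so neither count is a result about these genes. For ASYM against p53SYM 5 were called higher and 0 lower. The 22.7% higher lies under the 26.6% of that brightness range (15.6% of all probe sets), so this count is not a result either.

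Genes named in the background were read beside these. Myc read 10.41, 10.06 and 10.21 in ASYM, 10.96, 10.59 and 10.76 in SYM and 10.08 and 9.67 in p53SYM, highest in SYM without overlap. It changed by −0.54 ± 0.14 (SE; adjusted p = 0.0195) for ASYM against SYM and −0.89 ± 0.16 (SE; adjusted p = 0.00243) for p53SYM against SYM, and ASYM against p53SYM gave 0.35 ± 0.16 (SE; adjusted p = 0.112). Of 12 genes of the MYC network, 1 was called higher and 2 lower in ASYM than in SYM, and 0 higher and 1 lower in each of the other comparisons. Without ASYM replicate 2 or 3, or SYM replicate 1 or 3, the counts for ASYM against SYM became 0 higher and 1 lower. Of 13 genes of GTP and purine synthesis, 3 were called lower and 0 higher in ASYM than in SYM, and 2 lower and 1 higher in p53SYM than in SYM. Between ASYM and p53SYM, 1 was called higher and 2 lower in ASYM. The 1 higher in p53SYM than in SYM became 0 without any 1 of the SYM arrays. The 2 lower in ASYM than in p53SYM became 0 without ASYM replicate 1 or 2. The shares called lower of these 2 lists against SYM were 16.7% and 23.1% for ASYM and 8.3% and 15.4% for p53SYM. They stand next to 11.0% and 15.1% of all probe sets, and 18.6% and 27.1% of those in the brightness range of the 36 genes. For ASYM against p53SYM 8.3% and 15.4% were lower, next to 15.5% of all probe sets. The largest share called higher was 8.3%, next to 10.2% to 15.6% of all probe sets. These counts are not a result about the 2 lists. Prps1, which makes the ribose donor for purines, read 9.95, 9.84 and 9.98 in ASYM, 10.53, 10.45 and 10.60 in SYM and 9.79 and 9.79 in p53SYM. Both lines with p53 lay below SYM.

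Proliferation genes were also low in ASYM. Over 12 of them the mean log2 level was 9.98, 9.71 and 9.95 in ASYM, 10.36, 10.39 and 10.42 in SYM and 10.22 and 10.18 in p53SYM, with Cdk1 the brightest throughout. Of the 12, 10 were called lower in ASYM than in SYM, 6 lower in ASYM than in p53SYM and 2 lower in p53SYM than in SYM (83.3%, 50.0% and 16.7%), next to 11.0%, 15.5% and 15.1% of all probe sets. Without p53SYM replicate 1 the 6 became 3, with the hybridization-control block 0, and without ASYM replicate 2 the 2 became 4. Their part in the changes of the ribosome genes was not tested. Markers of 3 other cell types were read as well. The 4 epithelial markers averaged 3.85 to 4.27 over the arrays, the 3 endothelial markers 4.50 to 5.03, with Kdr the brightest, and the 3 haematopoietic markers 4.08 to 4.37, with Cd3e the brightest. Kdr and Cd3e were not at the dim end. Kdr read 5.91, 5.76 and 5.83 in ASYM, 6.20, 6.03 and 6.24 in SYM and 6.51 and 6.69 in p53SYM and was called lower in ASYM than in either other state and higher in p53SYM than in SYM. The call for ASYM against SYM was lost without any 1 of the ASYM arrays and without SYM replicate 1 or 3, and that for p53SYM against SYM without SYM replicate 2 or p53SYM replicate 2. Cd3e read 5.35, 5.28 and 5.38, 5.33, 5.31 and 5.42 and 5.66 and 5.88 in the same order of states and was called higher in p53SYM than in each of the others, which was lost without p53SYM replicate 2. The other markers of these 3 types were called in no comparison, and the part of any of them in the results was not tested.

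**Figure D4:**
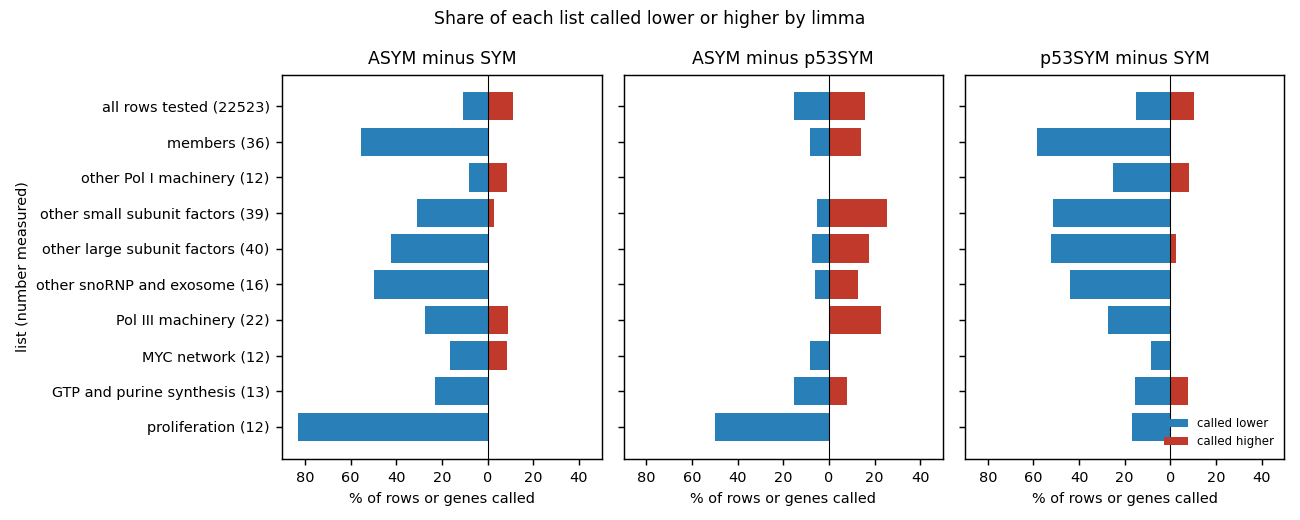
Percentage of each gene list, and of all probe sets, that limma called lower (blue, left of 0) or higher (red, right of 0) in the 3 comparisons; the number measured stands in parentheses. The 36 genes had 55.6% called lower for ASYM against SYM and 58.3% for p53SYM against SYM, next to 11.0% and 15.1% of all probe sets.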

How the data were processed

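Gene expression was measured on 8 Affymetrix arrays. The authors ran RMA in R on probe sets that were regrouped by RefSeq transcript and deposited the resulting log2 values, which were used as they stand. Names came from a RefSeq gene table of GRCm38.p6 and matched 81.2% of the probe sets. State means over all arrays were compared with limma 3.58.1 (R 4.3.3), with calls at a Benjamini-Hochberg adjusted p under 0.05 over 22523 probe sets. The rank product test was re-implemented in Python 3.11.15 (numpy 2.4.6, scipy 1.17.1, pandas 2.3.3), with 100 permutations within arrays and a pfp under 0.05. The main fit leaves out control probe sets. Figures were drawn with matplotlib 3.10.9.

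The brightest probe set of a gene was used. Change, SE and adjusted p are given in each comparison for up to 6 called genes per direction, by size of change. They are also given for Polr1a, Polr1b, Ubtf, Rrn3, Ncl and Gnl3. In other lists up to 2 called genes per direction were picked in the same way, and only some of them are described. Dis3, Polr2e, Rpf1, Rpf2, Taf1a, Taf1b, Prps1, Col3a1, Kdr and Cd3e were chosen from these after their values were seen. Of these, Taf1b, Prps1, Col3a1, Kdr and Cd3e are given by level only. The members and lists were chosen with earlier results of these data known. Alternatives were other fits, filters, scalings and blocks, and each array left out. An array has no sequencing depth, and the small number of arrays limits the precision.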

Additional observations from a re-analysis of the deposited data

Results flagged for a closer look

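The control probe sets for 18S ribosomal RNA, which were left out of the main fit, had a mean log2 level of 10.627 on SYM replicate 3, against 5.58 to 6.46 on the other 7 arrays. The 3′, middle and 5′ probe sets read 11.39, 9.53 and 10.97 there. The ribosome genes on that array were near those of the other SYM arrays: the median deviation of the 36 genes from their own means was 0.25, 0.22 and 0.25 on SYM replicates 1, 2 and 3.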

How the results depend on the processing

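The counts of called genes for ASYM against SYM by limma were 15 to 22 under the alternatives run, next to 20, and the median change lay between −0.36 and −0.27. For p53SYM against SYM, limma called 12 with the hybridization controls as a block, 15 after quantile normalization again and 11 to 21 with 1 array left out, next to 21; the median change was −0.30 after quantile normalization again and −0.49 to −0.38 with 1 array left out, next to −0.42. For ASYM against p53SYM, limma called 0 with that block, 0 to 9 with 1 array left out and 11 with a trend in the prior variance, next to 8, and the median was −0.012 after quantile normalization. By rank product, a pfp under 0.01 left 0 of 4 and 0 of 2 genes in the comparisons of ASYM and p53SYM with SYM, quantile normalization left 1 in the latter, and leaving out 1 array gave 0 to 3 and 0 to 1. The causes were not tested; fewer arrays give less precision, and with p53SYM reduced to 1 array that array is taken to vary like the other states.

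Whether the replicate numbers pair the samples was not settled. Same-numbered arrays correlated between −0.23 and 0.38 in their deviations. Between ASYM and SYM the same-numbered values were 0.27, 0.03 and 0.38, and the others lay between −0.41 and 0.12. The deviations of the 2 p53SYM arrays mirror each other, so values with p53SYM cannot decide on a pairing. With the number as a block limma called 21, 9 and 22 genes, next to 20, 8 and 21. Over the 38 changes of named genes and all alternatives, 621 of 684 values kept their side of the threshold, 53 lost the call, 10 gained it and 0 turned. Lost calls were mostly those of ASYM against p53SYM, such as that of Bysl under 10 of 18 alternatives, with adjusted p between 0.051 and 0.376. All 36 genes were above the 25th percentile of the means; detection calls were not used here, and the limit set by dim signal was not tested.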
